A study of Homo sapiens with 10 samples.

Results

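Genes of Polycomb group proteins, of ATP-dependent chromatin remodellers and of enzymes that write or erase histone marks were followed through the differentiation of H1 cells, a human embryonic stem cell line, towards hepatocyte-like cells. The genes were chosen by name, 49 symbols in all, and 46 of them were found among the 12125 genes of the deposited table. CBX8, KMT2A and KMT2B were not found by name and are not analysed here. The identifier of KMT2A stands in the table under the older name MLL, with values of 270, 232, 226, 246, 171, 154, 130, 191, 158 and 254 from the first day to the last, and this row is not counted with the members. By class, the 46 members were 5 genes of Polycomb repressive complex PRC2, 7 of PRC1, 11 of the SWI/SNF remodellers, 4 of the CHD remodellers, 6 histone deacetylases, 6 histone demethylases, 5 methyltransferases of the H3K9 class and 2 acetyltransferases.

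Polycomb complexes hold genes silent. PRC2 places a repressive methyl mark on histone H3 through its catalytic subunits EZH1 and EZH2, and PRC1 reads that mark through CBX proteins and adds ubiquitin to histone H2A through RING1 and RNF2. The SWI/SNF and CHD remodellers move nucleosomes with the energy of ATP, deacetylases remove acetyl groups that acetyltransferases such as EP300 add, and demethylases undo the marks of methyltransferases. In stem cells these machines are known for keeping developmental genes poised or silent, and several subunits have paralogs that replace each other in differentiated cells.

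The 10 libraries stand for 10 days, each sampled once and without a replicate: daily up to day 3, then every other day from day 5 to day 13, and last day 21. Day 0 cells were undifferentiated, those of days 1 to 3 received Activin A (100 ng per ml), and those of days 5 and 7 FGF4 (30 ng per ml) with BMP2 (20 ng per ml). HGF was given together with KGF on days 9 and 11, both at 20 ng per ml. Days 13 and 21 are labelled OSM (oncostatin M, 20 ng per ml), whereas by the treatment protocol day 13 closes the step with HGF and KGF. All libraries come from a single line, and the cells were not sorted, so a value is an average over the culture, in which fewer cells of a type and less RNA per cell cannot be told apart.

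The values are GC-normalized and written as whole numbers, and they are scores and not read counts. Every library summed to between 2330948 and 2362740, so that depth cannot be read from them. All libraries share nearly the same set of values, and from 1638 upwards these form levels at least 5% apart. PHC1 was the 1 member that reached them, on days 0 and 1. No member was listed at 0 on any day, and the lowest value of a member was 5. Differences are given as log2(value + 1), which understates the change of low genes, and a gene was called higher or lower where its log2 values differed by 1 or more and the higher value was no less than 50. Genes that reached this minimum on either day are referred to as tested, although a call describes 2 libraries and no statistical test is possible. For scale, days 9 and 11 share a medium, and the log2 differences between them over all genes had a standard deviation that depended on the mean value. It was 1.08 from 5 to 20, 0.49 from 20 to 50, 0.40 from 50 to 100, 0.32 from 100 to 200 and 0.28 from 200 to 500. From 5 to 20, 19.8% of genes differed by 2-fold or more, and the low end of several changes below, such as SMARCD3 on day 0 and EZH2 on day 21, lies there. Between these days 0 of 39 members were called in either direction, where 1.04% of all genes were called higher and 0.568% lower.

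The labelled stages were checked with marker genes. The summed value of 6 stem cell genes was 13569 on day 0 and 123 on day 21, that of 6 definitive endoderm genes was 18 on day 0 and 3784 on day 3, and that of 6 hepatoblast and hepatocyte genes was 39 on day 0 and 64966 on day 21. Other lists moved as well. All 6 stromal genes were called higher on day 21 than on day 0, with sums of 172 to 358 on days 0 to 3 and 12027 to 22531 on days 9 to 21. Red cell genes summed to 3 to 9 on days 0 to 3 and 89 to 3634 on days 9 to 21, endothelial genes (3 of 4 found, without PECAM1) to 294 to 572 and 744 to 1864, and macrophage genes (2 of 4 found, without CD14 and CSF1R) to 0 to 39 and 14 to 324. All 16 proliferation genes were called lower on day 21, and their sum was 8708 on day 0, 11069 on day 1, 6082 on day 3, 2590 on day 7, 4138 on day 13 and 912 on day 21. The part of these changes in the values of the chromatin genes was not tested.

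Over the whole course more of the members were lower than higher. On day 21 against day 0, 18 of the 43 members above the minimum were called lower, where 26.4% of all genes were, and 8 were called higher, where 23.9% of all genes were. As shares of the members these are 41.9% lower and 18.6% higher. The median log2 difference was -0.62 over the 46 members and -0.12 over all genes. Of the members 32 were below 0 and 14 above, where 6469 of all 12125 genes were below 0 and 5518 above. By class the median was -2.03 for the H3K9 methyltransferases, -0.91 for PRC1, -0.87 for SWI/SNF, -0.80 for PRC2, -0.77 for the CHD remodellers, -0.45 for the demethylases, -0.18 for the deacetylases and 0.21 for the acetyltransferases. These medians take in members below the minimum, such as SUV39H1 among the H3K9 methyltransferases. A scaling by median of ratios moved the median of all genes in this comparison by 0.18 and left 16 members lower and 8 higher, where 21.8% and 28% of all genes were. The count depends on the last library: with day 13 in place of day 21, 11 members were lower and 5 higher, where 20.3% and 19.7% of all genes were, and with day 11 there were 8 lower and 4 higher, where 18.2% and 19.3% of all genes were. With day 1 in place of day 0 as the start, 21 were lower and 7 higher, where 26.8% and 24.0% of all genes were.

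**Figure D1:**
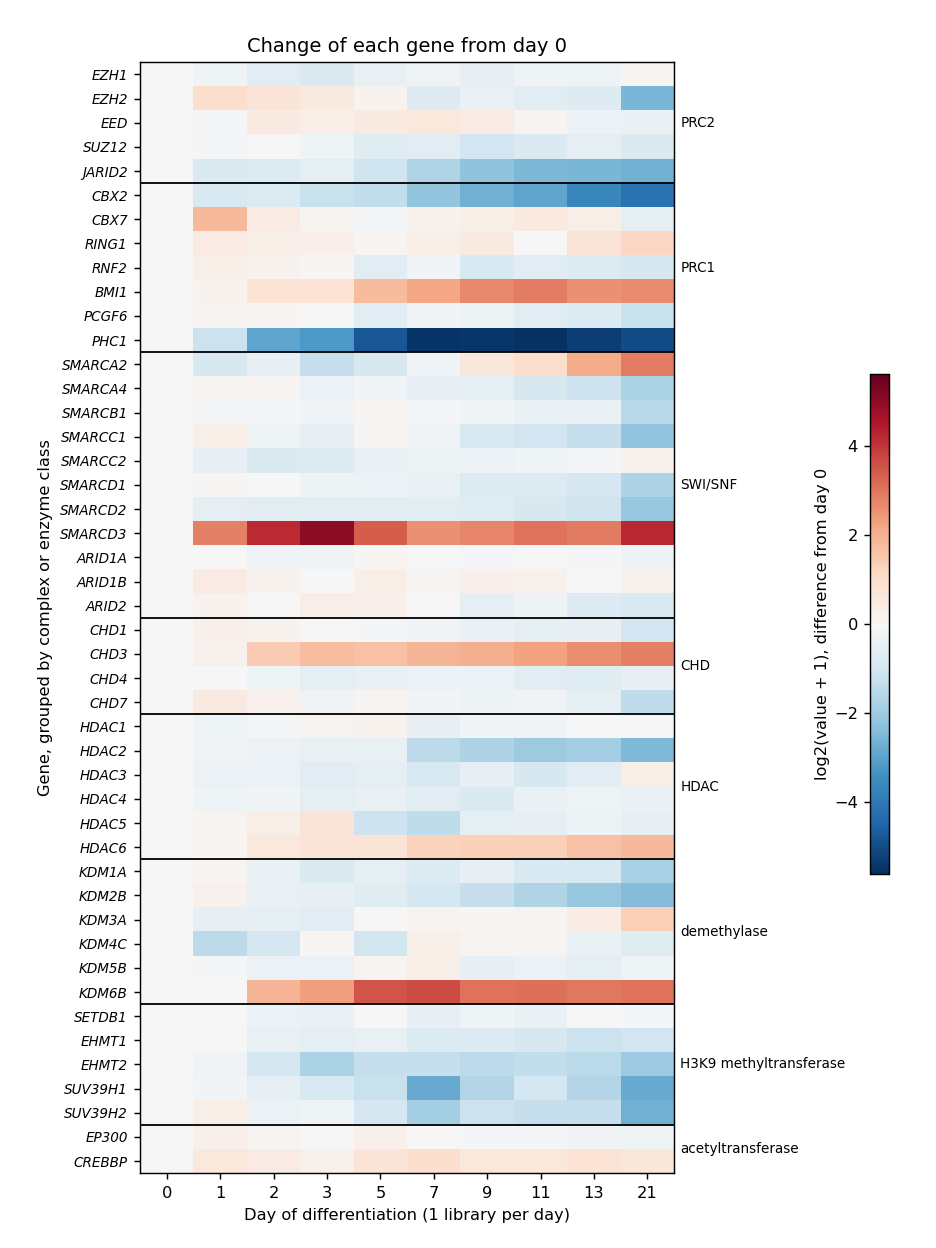
Heat map of the 46 genes (rows, grouped by complex or enzyme class) on the 10 days (columns, 1 library each), coloured by the difference of log2(value + 1) from day 0, blue for lower and red for higher. PHC1, CBX2, JARID2 and HDAC2 turn blue, and SMARCD3, KDM6B, CHD3 and BMI1 turn red.

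The steps between stages gave fewer calls. On day 3 against day 0, 3 members were called higher (SMARCD3, CHD3 and KDM6B) and 3 lower (CBX2, PHC1 and EHMT2) of 42 tested, where 11.1% and 9.07% of all genes were. On day 7 against day 3, 2 were higher (BMI1 and KDM6B) and 7 lower (EZH2, JARID2, PHC1, SMARCD3, HDAC2, HDAC5 and SUV39H2) of 42, where 13.2% and 12.8% of all genes were. On day 13 against day 7, 2 were higher (SMARCA2 and HDAC5) and 3 lower (CBX2, SMARCC1 and KDM2B) of 40, where 9.65% and 8.21% of all genes were. On day 21 against day 13, 1 was higher (SMARCD3) and 3 were lower (EZH2, SMARCB1 and SMARCD2) of 39, where 8.57% and 9.08% of all genes were. Successive comparisons share a library. In each of these steps the share of members called was near or below that of all genes, except for the falls from day 3 to day 7, at 16.7% of the members. This excess depends on the threshold: at 1.5-fold 9 of 42 members were lower, where 22.9% of all genes were, so that the members were no longer above all genes. In all, 27 of the 45 members that reached 50 on any day were called in at least 1 of the 5 comparisons, which is 60.0%, where 61.3% of all genes were.

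A second description used 8 of the libraries. The values of days 0 to 3 all lay above those of days 9 to 21 for 19 of 45 members, where 26.4% of all genes showed this, and all below them for 6, where 21.5% of all genes did. The 6 were BMI1, SMARCA2, CHD3, HDAC6, KDM3A and KDM6B. The 19 were EZH2, SUZ12, JARID2, CBX2, RNF2, PCGF6, PHC1, SMARCA4, SMARCC1, SMARCD1, SMARCD2, ARID2, CHD1, HDAC2, HDAC5, KDM2B, EHMT1, SUV39H2 and EP300. Day 21 alone held the lowest value of the course for 22 members, where 28.3% of all genes had it there, and the highest for 8, where 19.4% did. Day 0 or day 1 held the highest value for 22, where 29.7% of all genes did. The largest step between successive libraries was a fall from day 13 to day 21 for 10 members, where it was so for 16.6% of all genes. These were EZH2, SMARCA4, SMARCB1, SMARCC1, SMARCD1, SMARCD2, CHD1, CHD7, KDM1A and SUV39H2. It was a rise over the same days for 2, HDAC3 and KDM3A, where it was so for 9.29% of all genes. This interval is also the longest between libraries.

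**Figure D2:**
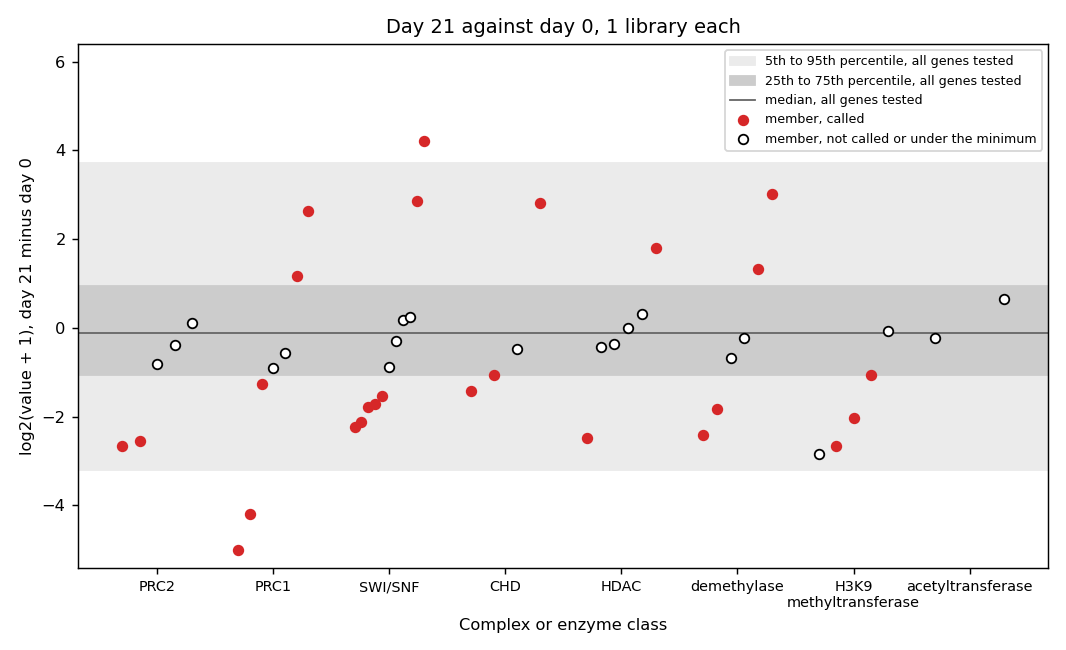
Difference of log2(value + 1) between day 21 and day 0 (vertical axis) for each member, by class (horizontal axis). Filled points are members called higher or lower, open points are the others, and the shaded bands and line give the percentiles and median of all genes tested. PHC1 and CBX2 in PRC1 lie below the 5th percentile and SMARCD3 in SWI/SNF above the 95th.

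The start regions of 5 members with large differences are shown because they differ in base composition and motif content. RefSeq gave a start region for 40 of the 46 members in GRCh38.p14, a build other than that of the table, and the 150 bases before the most upstream start are printed from 5′ to 3′ on the strand of the gene. PHC1 had the largest fall of the members, JARID2 and EZH2 the largest falls in PRC2, and CHD3 and KDM6B rose. Capitals mark matches, on either strand, to 4 motifs: the box with the letters CCAAT, the TATA motif with the letters TATAAA, the cell cycle element CHR with the letters TTTGAA or, in a variant, TTCGAA, and the E2F motif, written TTTCGCGC, TTTGGCGC or TTTCCCGC.
PHC1, chr12:8913693-8913842, plus strand: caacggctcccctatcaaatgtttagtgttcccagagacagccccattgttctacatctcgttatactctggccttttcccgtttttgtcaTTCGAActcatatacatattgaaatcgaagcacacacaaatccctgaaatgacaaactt
JARID2, chr6:15245919-15246068, plus strand: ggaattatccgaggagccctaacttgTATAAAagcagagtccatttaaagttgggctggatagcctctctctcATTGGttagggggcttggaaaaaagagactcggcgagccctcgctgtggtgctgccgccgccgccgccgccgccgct
EZH2, chr7:148884292-148884441, minus strand: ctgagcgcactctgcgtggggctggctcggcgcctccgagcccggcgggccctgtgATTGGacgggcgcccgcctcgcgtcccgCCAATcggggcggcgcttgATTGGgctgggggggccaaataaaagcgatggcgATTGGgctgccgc
CHD3, chr17:7888639-7888788, plus strand: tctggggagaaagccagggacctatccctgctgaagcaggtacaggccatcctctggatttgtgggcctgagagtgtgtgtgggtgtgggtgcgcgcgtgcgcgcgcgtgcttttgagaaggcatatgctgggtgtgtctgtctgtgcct
KDM6B, chr17:7834067-7834216, plus strand: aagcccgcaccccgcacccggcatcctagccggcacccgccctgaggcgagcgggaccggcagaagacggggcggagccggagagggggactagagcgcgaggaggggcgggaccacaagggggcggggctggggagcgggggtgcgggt

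The EZH2 region held 4 CCAAT matches, the PHC1 region 1 CHR match, whose letters read the same on both strands, and the JARID2 region 1 CCAAT and 1 TATA match. In the full 250 bases before the start, GC content was 37.6% for PHC1, 65.6% for JARID2, 75.6% for EZH2, 58.8% for CHD3 and 70.4% for KDM6B. Over the 40 members the median number of CpG was 22.5 in 250 bases, against 10 over 27305 RefSeq genes. This background also holds genes outside the 12125 of the deposited table, so that it is not the set called all genes elsewhere. A CCAAT match was found in 11 of the 40 and in 33% of these RefSeq genes, a CHR match in 2 (PHC1 and SUZ12) and 14.6%, a TATA match in 2 (JARID2 and PHC1) and 11.2%, and an E2F match in 1 (SUZ12) and 2.36%. These matches are letters in a window.

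In PRC2, the catalytic subunit EZH2 and the cofactor JARID2 were lower late in the course, whereas EZH1, EED and SUZ12 differed less. EZH2 (ENSG00000106462, chromosome 7 from 148504475 to 148581375) had values of 99, 199, 166, 146, 115, 60, 76, 66, 59 and 16 in the order of the days. It was highest on day 1 and lowest on day 21, with log2 differences of -1.27 from day 3 to day 7, -0.02 from day 7 to day 13 and -1.82 from day 13 to day 21. EZH1 (ENSG00000108799, chromosome 17 from 40852294 to 40897071), the other catalytic subunit, had values of 98, 84, 64, 55, 74, 86, 72, 82, 82 and 106. Its lowest value was on day 3 and its highest on day 21, and no comparison called it. These intervals are those of the table, and hg19 is the only human build that the submitters' processing notes name.

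JARID2 (ENSG00000008083, chromosome 6 from 15246527 to 15522252), which guides PRC2 to its targets, had values of 712, 410, 414, 508, 332, 224, 150, 124, 119 and 111. The values declined through days 5 to 11 and then stayed between 111 and 124, and the log2 difference from day 0 to day 21 was -2.67. SUZ12, a core subunit that PRC2 needs to stay assembled, had values of 144, 138, 145, 120, 90, 94, 68, 82, 100 and 82, with all of days 0 to 3 above all of days 9 to 21, but a log2 difference of only -0.80 over the course. SUZ12 has a pseudogene copy that can share reads with it, so that its values are uncertain. EED, the core subunit that binds the mark of the complex, lay between 35 on day 21 and 70 on day 7 and was not called.

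In PRC1, PHC1, CBX2 and PCGF6 were called lower on day 21 than on day 0, and BMI1 and RING1 higher. PHC1 (ENSG00000111752, chromosome 12 from 9066492 to 9075287), a polyhomeotic subunit that lets PRC1 complexes join into larger assemblies, had values of 6494, 2798, 839, 703, 234, 145, 148, 140, 165 and 203. The value on day 0 was 46.4 times the lowest, on day 11, and the log2 difference was -3.21 from day 0 to day 3, -2.27 from day 3 to day 7 and 0.19 from day 7 to day 13. The value of day 0 lay on a shared level with the next ones at 4866 below and 18734 above, and that of day 1 between levels at 2643 and 2968, so that the size of the first step is coarse. A pseudogene copy may share reads with the gene. From day 2 on the values lay below those levels and still declined from 839 to 140.

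CBX2 (ENSG00000173894, chromosome 17 from 77751931 to 77761782), a chromodomain subunit, had values of 582, 326, 340, 248, 221, 124, 90, 74, 46 and 31. It was called lower in the step from day 0 to day 3 and in that from day 7 to day 13, and its log2 difference over the course was -4.19. CBX7, the other CBX gene of the table's members, had values of 24, 86, 33, 27, 23, 28, 30, 36, 30 and 16, with a single high value on day 1. On the other days CBX7 lay between 16 and 36, at levels where libraries differ more, and with neither day 0 nor day 21 reaching 50 it was not tested between them.

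BMI1 (ENSG00000168283, chromosome 10 from 22605381 to 22618027), a PCGF subunit of canonical PRC1, went the other way, with values of 12, 14, 21, 21, 43, 58, 84, 94, 76 and 80. Its log2 difference was 0.76 from day 0 to day 3, 1.42 from day 3 to day 7 and 2.64 over the course, and it lay between 76 and 94 from day 9 on. The interval that the table gives for BMI1 is 123.1% of the length of the gene in GENCODE release 29 and may take in part of a neighbour. PCGF6, the PCGF subunit of a variant PRC1 known from stem cells, had values of 54, 59, 58, 53, 36, 48, 44, 36, 31 and 22, and its log2 difference over the course was -1.26. Of the E3 ligase subunits, RNF2 had values of 104, 132, 120, 108, 66, 94, 58, 69, 60 and 55 and RING1 of 44, 60, 56, 53, 48, 56, 62, 44, 74 and 100. RNF2 was lower late, with a log2 difference of -0.91 that was not called, and RING1 was called higher on day 21, by 1.17. RING1 and EHMT2 lie in the histocompatibility region, where alternative haplotypes of the genome can split reads.

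**Figure D3:**
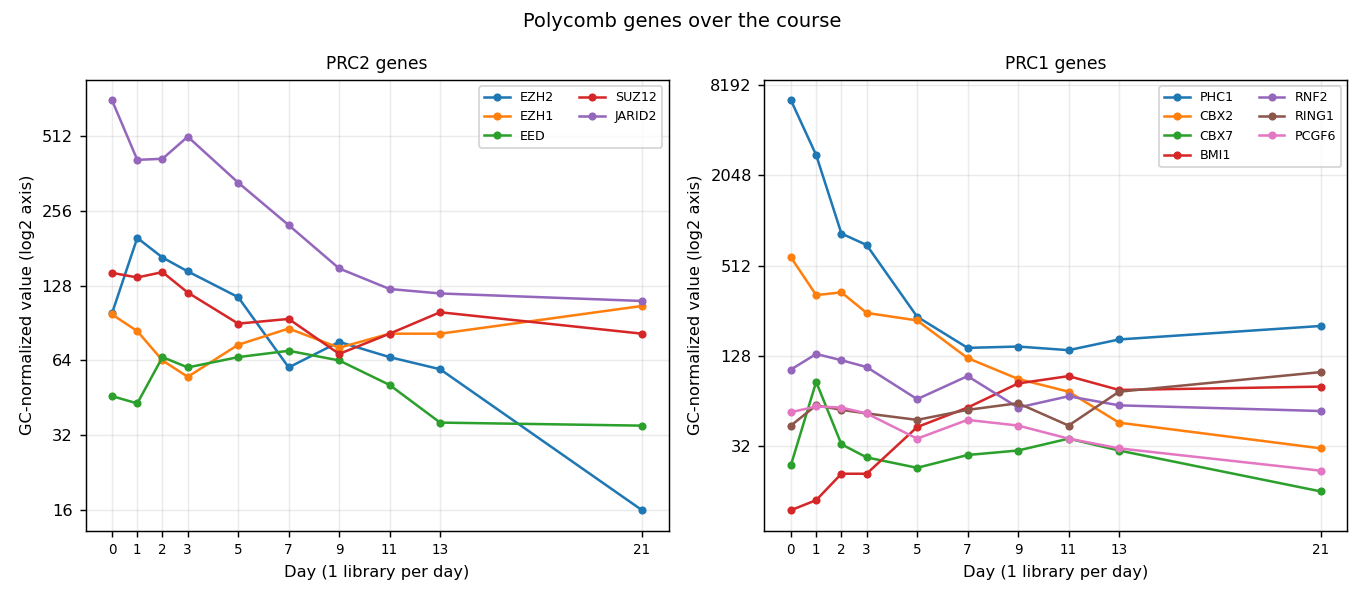
Values of the 5 PRC2 genes (left) and the 7 PRC1 genes (right) by day, with GC-normalized value on a log2 axis and 1 library per point. PHC1 declines by day 5 and CBX2 throughout, BMI1 rises to day 11, and EZH2 is highest on day 1 and lowest on day 21.

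EZH2, the H3K9 methyltransferases SUV39H1 and SUV39H2 and the summed proliferation genes were low on days 7 and 21 and somewhat higher on day 9, but did not move alike on all other days. SUV39H2 (ENSG00000152455, chromosome 10 from 14920819 to 14946314), which trimethylates histone H3 in heterochromatin, had values of 69, 88, 54, 58, 35, 18, 29, 28, 28 and 10. Its log2 difference was -1.63 from day 3 to day 7 and -2.67 from day 0 to day 21. SUV39H1, which has the same activity, had values of 49, 44, 33, 27, 20, 6, 15, 24, 15 and 6 and never reached 50, so that it was not tested. The value on day 7 was the lowest up to then for all 3 genes and for the summed proliferation genes (2590), and on day 9 all 4 were higher again, the sum at 4044. For EZH2 this rise, from 60 to 76, was within the standard deviation of 0.40 between days 9 and 11 at its level. SUV39H1, from 6 to 15, lay at values where that spread was widest. The share of all genes with such a course was not counted. On day 21 each of the 4 was at its lowest, for SUV39H1 level with day 7. Day 21 alone held the lowest value for 28.3% of all genes. From day 9 to day 11 the courses parted, with the sum going from 4044 to 4810, SUV39H1 from 15 to 24, EZH2 from 76 to 66 and SUV39H2 from 29 to 28. SUV39H1 was highest on day 0, and the other 3 on day 1. The part of proliferation in these values was not tested.

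Among the other H3K9 methyltransferases, EHMT2 (ENSG00000204371, chromosome 6 from 31847536 to 31852583), which dimethylates histone H3, had values of 582, 504, 291, 172, 233, 236, 210, 223, 202 and 142. Most of its decline came by day 3, with a log2 difference of -1.75, and the values then lay between 142 and 236. EHMT1, its partner in a heterodimer, had values of 368, 378, 278, 250, 274, 215, 218, 198, 159 and 176 and a smaller log2 difference of -1.06 over the course. SETDB1, which silences transposable elements, had values of 142, 142, 113, 108, 138, 102, 121, 108, 144 and 136 and was the steadiest of the class, with its highest value 1.41 times its lowest. Of the 5 genes of this class, 0 were above day 0 on day 21, where 5518 of 12125 genes were. The median log2 difference was -2.03, and it takes in SUV39H1, which was not tested.

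In the SWI/SNF complexes, 5 of 11 subunit genes were called lower on day 21 than on day 0 and 2 were called higher, where 26.4% and 23.9% of all genes were. SMARCA4 (ENSG00000127616, chromosome 19 from 11071677 to 11172735), the ATPase known as BRG1, had values of 920, 982, 981, 726, 824, 660, 620, 492, 410 and 266. Its values were 726 or more on days 0 to 5 and then lower on each later day, with a log2 difference of -1.79 over the course. SMARCA2 (ENSG00000080503, chromosome 9 from 2015374 to 2060971), the alternative ATPase known as BRM, had values of 14, 7, 10, 5, 7, 12, 22, 29, 62 and 108. It lay at 14 or less up to day 7 and was higher on each later day, by a log2 difference of 2.28 from day 7 to day 13 and 2.86 over the course.

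Of the 2 scaffold subunits, 1 was called lower on day 21 than on day 0, where 26.4% of all genes were. SMARCC1 had values of 919, 1157, 768, 668, 956, 790, 512, 442, 376 and 195, and its log2 difference over the course was -2.23. Its paralog SMARCC2 had values of 280, 203, 161, 162, 208, 230, 225, 234, 259 and 318. SMARCC2 was lowest on day 2 and highest on day 21 and was not called. Gene lengths were not divided out, so that levels of different genes are not compared.

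Of the SMARCD subunits, which link the complex to transcription factors, SMARCD1 had values of 492, 512, 488, 404, 390, 374, 293, 285, 252 and 150 and SMARCD2 of 402, 282, 258, 258, 260, 260, 252, 213, 186 and 92. Both were called lower on day 21 than on day 0, by -1.71 and -2.12 on the log2 scale. SMARCD3 (ENSG00000082014, chromosome 7 from 150935850 to 150936556), the subunit known from heart and muscle, had values of 5, 42, 106, 190, 62, 34, 39, 48, 44 and 111. It went up on each day with Activin A to its peak on day 3 (log2 difference 4.99), was lower by 2.45 on day 7 and was higher again on day 21, by 1.32 over day 13. The value on day 0 is low, so that the size of its first rise depends on the pseudocount, and the interval in the table spans 1.81% of the length of the gene in GENCODE release 29.

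SMARCB1, a core subunit present in most forms of the complex, had values of 298, 282, 274, 266, 317, 278, 266, 227, 232 and 102. It stayed between 227 and 317 up to day 13, and the step to day 21 was -1.18 on the log2 scale. Day 21 thus held the lowest value of SMARCA4, SMARCB1, SMARCC1, SMARCD1 and SMARCD2. The ARID subunits varied less. ARID1A, which marks the canonical form, had values of 497, 512, 434, 432, 531, 501, 463, 497, 457 and 405, and ARID1B lay between 173 on day 0 and 238 on day 1. ARID2, which marks the polybromo form, had values of 290, 331, 287, 370, 358, 284, 196, 240, 178 and 158, all of days 0 to 3 above all of days 9 to 21, with a log2 difference of -0.87.

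Ratios between related genes were then followed, since gene length cancels in the change of a ratio. The log2 ratio of EZH1 over EZH2 was -0.01 on day 0, -1.39 on day 3 and 2.65 on day 21, a shift of 2.67 over the course. SMARCA2 over SMARCA4 went from -5.94 on day 0 through -6.94 on day 1 to -1.29 on day 21, a shift of 4.65. CBX7 over CBX2 shifted by 3.63 and SMARCD3 over SMARCD1 by 5.93. Between days 9 and 11 the same ratios differed by 0.39, 0.72, 0.53 and 0.33. A shift in a ratio does not show that both genes changed. From day 0 to day 21 CBX7 went from 24 to 16 and was not tested, while CBX2 went from 582 to 31. EZH1 differed by 0.11 on the log2 scale and was not called, and EZH2 differed by -2.56.

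Other pairs were added after their values were seen. CHD3 over CHD4 shifted by 3.29, HDAC1 over HDAC2 by 2.49, SMARCC2 over SMARCC1 by 2.41, EHMT1 over EHMT2 by 0.97 and CREBBP over EP300 by 0.89. The sign of each shift is set by which gene of the pair is put first. Between days 9 and 11 these ratios differed by 0.46, 0.25, 0.27, -0.22 and 0.03. Here too 1 gene could carry most of a shift. From day 0 to day 21 HDAC1 differed by 0.01 and HDAC2 by -2.48, SMARCC2 by 0.18 and SMARCC1 by -2.23. The timing differed between pairs. SMARCD3 over SMARCD1 and CHD3 over CHD4 had shifted by day 3, whereas SMARCA2 over SMARCA4 was above its day 0 ratio only from day 7 on, and EZH1 over EZH2 moved most between days 13 and 21.

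**Figure D4:**
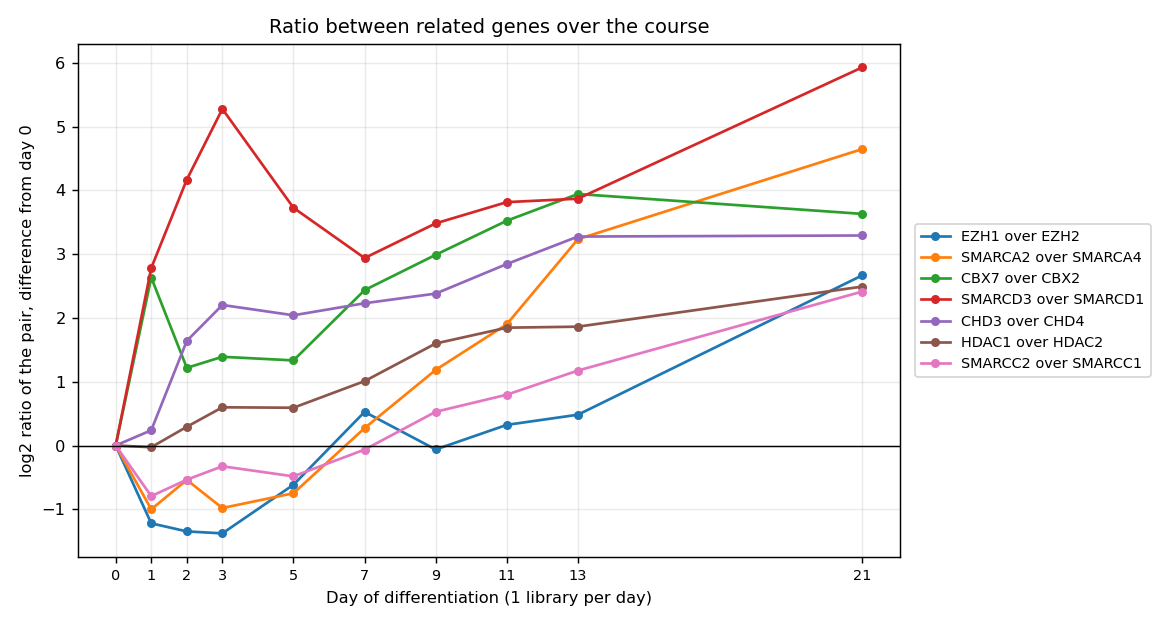
Log2 ratio of the values of related genes (vertical axis), as a difference from day 0, by day (horizontal axis), with 1 library per point. SMARCD3 over SMARCD1 peaks on day 3 and again on day 21, SMARCA2 over SMARCA4 climbs from day 5 on, and EZH1 over EZH2 lies below 0 on days 1 to 5 and is 2.67 above it on day 21.

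Of the CHD remodellers, CHD3 rose and CHD1 and CHD7 were lower on day 21. CHD3 (ENSG00000170004, chromosome 17 from 7788124 to 7816078), an ATPase of the NuRD complex, had values of 88, 104, 234, 290, 276, 328, 364, 428, 540 and 628. Each day from day 7 on was higher than the one before, and the log2 difference was 1.71 from day 0 to day 3 and 2.82 over the course. CHD4 (ENSG00000111642, chromosome 12 from 6679249 to 6716534), the other NuRD ATPase, had values of 1065, 1065, 902, 756, 805, 839, 838, 714, 668 and 768 and was not called. CHD1, known for keeping stem cell chromatin open, had values of 268, 322, 306, 269, 256, 244, 209, 186, 196 and 128, and CHD7, a remodeller active at enhancers, had values of 332, 467, 398, 291, 364, 294, 271, 292, 234 and 124. Their log2 differences over the course were -1.06 and -1.41, and the step from day 13 to day 21 was the largest for both.

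HDAC2 was the histone deacetylase with the largest decline. HDAC2 (ENSG00000196591, chromosome 6 from 114254192 to 114292449), a class I enzyme, had values of 1436, 1250, 1130, 1066, 1088, 518, 431, 351, 387 and 256. It stayed at 1066 or more up to day 5, dropped by 1.07 on the log2 scale from day 5 to day 7, and its log2 difference over the course was -2.48. HDAC1, the paralog that shares complexes with it, had values of 336, 287, 324, 378, 384, 244, 306, 296, 330 and 338 and was not called in any comparison. HDAC3, the enzyme of the NCoR complexes, lay between 136 on day 11 and 318 on day 21, a late step of 0.90 that was not called.

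The class II enzymes showed other courses. HDAC5, which shuttles between nucleus and cytoplasm, had values of 220, 248, 273, 360, 99, 82, 150, 161, 183 and 162. It was higher on each day with Activin A to its peak on day 3 (log2 difference 0.71, not called), was lower by 2.12 on the log2 scale on day 7, after the change to FGF4 and BMP2, and was called higher again on day 13, by 1.15. Because day 7 was its lowest point, the fall and the later rise share that library. HDAC6, a mainly cytoplasmic enzyme that acts on tubulin, had values of 94, 100, 140, 162, 156, 234, 239, 238, 298 and 331, with a log2 difference of 1.81 over the course. HDAC4 lay between 32 and 57 and was not called.

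Among the demethylases, KDM6B and KDM3A were higher late and KDM2B and KDM1A lower. KDM6B (ENSG00000132510, chromosome 17 from 7743222 to 7748665), which removes the repressive methyl mark of PRC2, had values of 30, 30, 116, 154, 350, 392, 256, 258, 242 and 251. Its log2 differences were 2.32 from day 0 to day 3 and 1.34 from day 3 to day 7, and after its peak on day 7 it lay between 242 and 258. KDM3A, which acts on methylated lysine in silent chromatin, had values of 136, 100, 94, 88, 135, 153, 144, 152, 180 and 342, with log2 differences of -0.62 from day 0 to day 3 and 1.32 over the course.

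KDM2B (ENSG00000089094, chromosome 12 from 121867312 to 121947509), which binds unmethylated CpG and brings a variant PRC1 to CpG islands, had values of 390, 466, 293, 280, 245, 195, 157, 120, 90 and 72. It was lower on each day after day 1, with a log2 difference of -2.42 over the course. KDM1A, also called LSD1, had values of 889, 982, 684, 504, 634, 527, 642, 488, 497 and 250 and a log2 difference of -1.83 over the course, of which -0.99 came from day 13 to day 21. KDM5B had values of 660, 634, 531, 524, 726, 823, 484, 527, 466 and 567 and was not called. KDM4C lay between 43 on day 1 and 152 on day 7, with uneven neighbouring days, and was not called in any of the 5 comparisons.

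**Figure D5:**
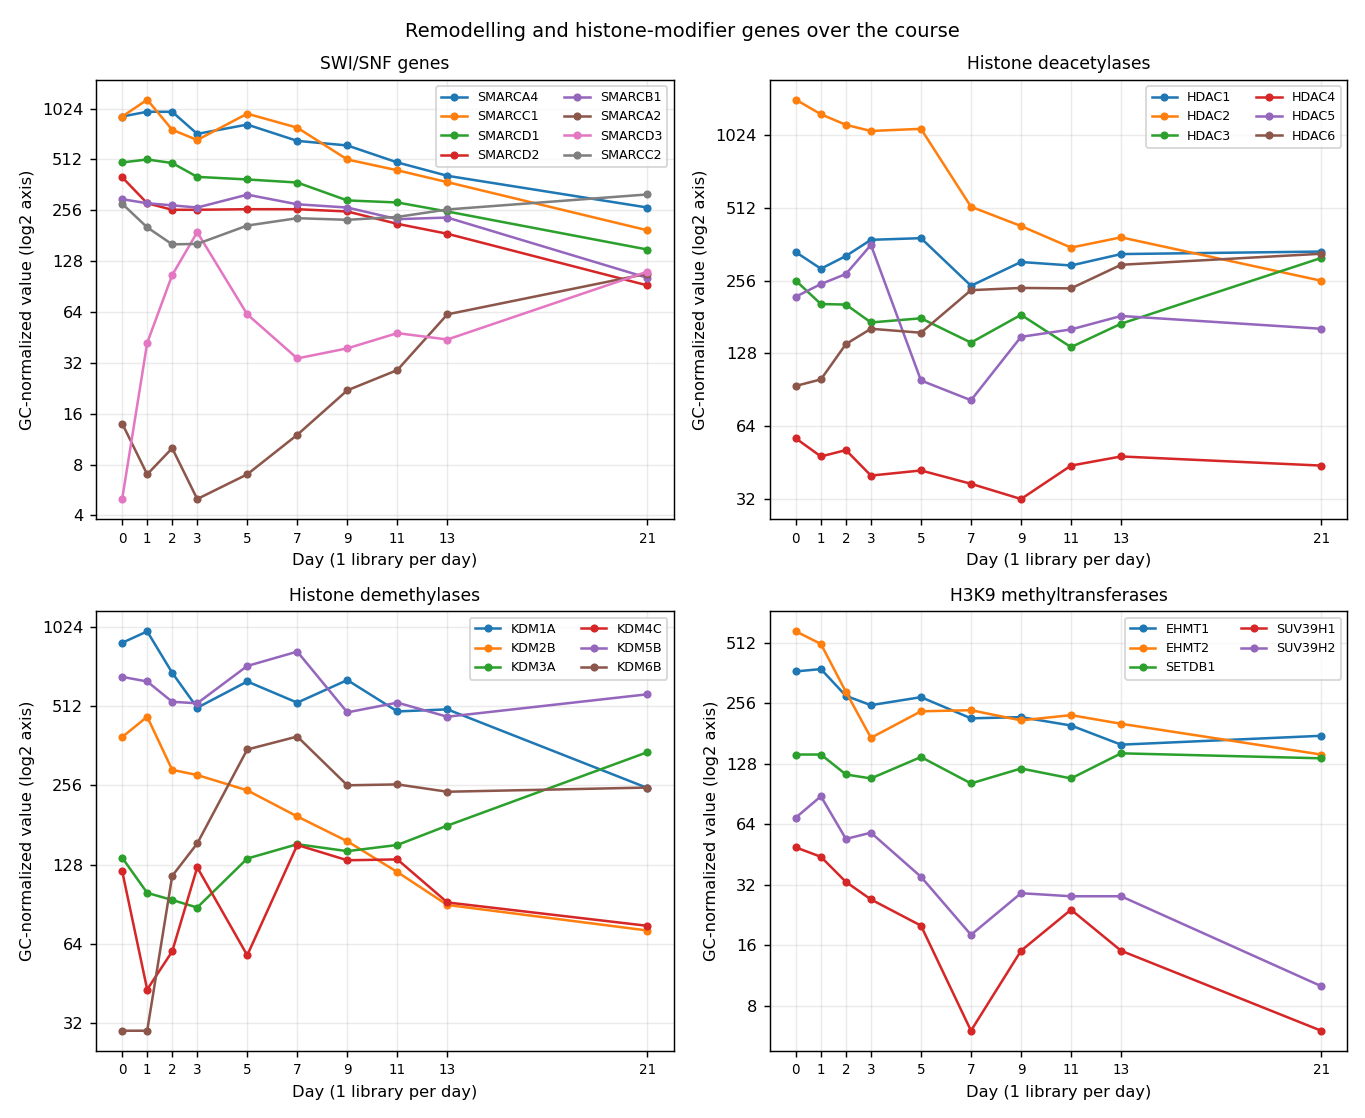
Values of 8 SWI/SNF genes, 6 deacetylases, 6 demethylases and 5 H3K9 methyltransferases by day, with GC-normalized value on a log2 axis and 1 library per point. SMARCA2 climbs and SMARCA4 declines from day 7 on, HDAC2 drops from day 5 to day 7, HDAC5 peaks on day 3, and KDM6B rises from day 1 to day 7 while KDM2B declines.

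Of the acetyltransferases EP300 was steady, whereas the highest value of CREBBP was 1.94 times its lowest. EP300 had values of 412, 496, 462, 412, 501, 407, 398, 392, 373 and 350, with a highest value 1.43 times its lowest, and its values on days 0 to 3 nevertheless all lay above those of days 9 to 21. CREBBP had values of 210, 316, 290, 245, 344, 408, 316, 317, 358 and 331, lowest on day 0 and highest on day 7, and was not called.

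Relatives of the members were counted in the same comparisons, from lists of partner genes, where 23.9% of all genes were higher and 26.4% lower on day 21 than on day 0. Of 18 further Polycomb genes found of 19 listed, 16 were tested on day 21 against day 0, and 4 were called higher and 3 lower. The largest difference upward was that of PHC2, a paralog of PHC1, from 37 to 268 (log2 difference 2.82), and the largest downward that of MTF2, a PRC2 cofactor, from 341 to 102 (-1.73). Of 34 further remodeller genes, 30 were tested, and 4 were higher and 12 lower. SMARCA5, the ATPase of the ISWI remodellers, had the largest fall, from 3438, on a shared top level, to 489 (-2.81), and PHF10 the largest rise, from 111 to 277 (1.31). Of 42 further histone modifier genes, 39 were tested, and 6 were higher and 6 lower, among them SIRT2, a deacetylase, from 24 to 134 (2.43), and KAT7, an acetyltransferase, from 714 to 78 (-3.18).

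For 7 of the 46 members the interval in the table spans less than 30% of the length of the gene in GENCODE release 29, where this held for 10.2% of all genes. These were SUZ12, SMARCA2, SMARCD3, CHD1, HDAC6, KDM3A and EHMT2. Other members were also spanned only in part, among them PHC1 (31.9%), SMARCB1 (32.23%), KDM6B (36.55%) and SETDB1 (39.26%). Whether the values of such members cover all transcripts of the gene was not tested.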

How the data were processed

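RNA of H1 cells was sequenced on 10 days, 1 library per day, and the deposited table of 12125 genes holds 1 value per gene and day. According to the methods of the study, the authors made TruSeq libraries, sequenced them on a MiSeq, mapped reads with Bowtie2 2.2.0, quantified genes with RSEM 1.2.17 and normalized for GC content with EDASeq. The deposited values are scores, whole numbers with a nearly identical distribution in every library, and neither counts nor depth can be recovered from them. The submitters' processing notes name hg19 and mm10 without saying where each was used, and the methods name a mouse transcriptome although the gene names are human. Normalization to a shared distribution can remove a change in total RNA and sets the highest genes to shared levels.

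From the table, log2(value + 1) was computed in Python 3.11.15 using pandas 2.3.3 and numpy 2.4.6, and days were compared as differences. A gene was tested, here meaning held against the minimum, where the larger value was at least 50, and called where the log2 values differed by 1 or more. With 1 library per day no test, standard error or p-value can be given. The code of the calling step was run on simulated data, with less spread than between real libraries and a change well above the threshold. That run checks the code and does not show how reliable the calls are. Values on all days are given for all members called in 1 of the 5 comparisons or in the comparison of ranges, the members of the paralog pairs and, per class, the uncalled member with the smallest range. SUV39H1 and SMARCC2 were added after their values were seen. EED, ARID1B, HDAC3, HDAC4 and KDM4C are given by their range. Members, lists and comparisons were chosen with earlier results of these data known. Gene lengths came from GENCODE release 29 and start regions from RefSeq (GRCh38.p14), neither of which shares the table's coordinates. Alternatives were pseudocounts of 0.1 and 5, no minimum or one of 100, a fold of 1.5, median of ratios scaling and neighbouring days.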

Additional observations from a re-analysis of the deposited data

How the results depend on the processing

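Of 90 alternative values, 71 stayed within 1.5 times the count or, for ratios, within the spread of values between days 9 and 11, 19 moved and 0 reversed. Most of these values are counts of members, and a count has no sign to reverse, so that the 0 says nothing about them. The sorting also compares counts alone, and not the share of members with that of all genes. Each count of members is followed by the share of all genes called in the same way. With a 1.5-fold threshold 5 of 42 members were higher (19.3% of all genes) and 8 lower (20.1%) from day 0 to day 3. From day 3 to day 7 it gave 6 of 42 higher (22.0%) and 9 lower (22.9%), the latter sorted as unmoved, and from day 7 to day 13 11 of 40 lower (18.5%). From day 13 to day 21 this threshold gave 4 of 39 higher (17.7%) and 10 lower (20.8%). With a minimum of 100, 1 of 36 was higher (13.6%) from day 3 to day 7 and 1 of 33 (9.68%) from day 7 to day 13. With day 5 in place of day 7, 1 of 41 was higher (7.76%) and 4 were lower (7.3%) than on day 3, and with day 11 in place of day 13, 0 of 39 were higher (6.2%) and 0 lower (4.32%) than on day 7. From day 13 to day 21, median of ratios scaling gave 2 of 39 higher (9.88%), and no minimum gave 5 of 46 lower (12.3%). Against day 0, and chosen after seeing the data, day 13 in place of day 21 gave 5 of 42 higher (19.7%) and 11 lower (20.3%), and day 11 gave 4 of 41 higher (19.3%) and 8 lower (18.2%). The shift of SMARCD3 over SMARCD1 was 5.22 with a pseudocount of 5. Apart from fewer genes tested and the lower threshold, the cause was not tested. Leaving out a replicate was not possible with 1 library per day. No paired analysis was possible because each day had 1 library. Depth is unknown, so that a low value has no counting interval.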
